A study of Homo sapiens with 6 samples.

Results

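COL4A1, COL5A1, COL8A1 and COL17A1 encode chains of the collagens IV, V, VIII and XVII. Their rows were taken by gene symbol from the deposited expression table, which gave 4 of its 1705 genes. RNA was measured by RNA-seq in the human lung adenocarcinoma line PC9, an epithelial line with an EGFR exon 19 deletion that both groups carry. PC9-GR is its gefitinib-resistant derivative, selected with stepwise doses of this EGFR inhibitor from 0.5 to 10 µM and kept at 10 µM. The drug was left out for the last 7 days before PC9-GR RNA was taken, and PC9 is the parental line. Each group has 3 libraries from independent cultures, and whether PC9-GR is 1 clone is not given in the sources used here. Expression is given as FPKM, a fragment count scaled to transcript length and library size by the authors, so levels can be set side by side between genes. Sequencing depth is unknown, since no counts were used here.

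The authors' table lists only genes already selected as changed between PC9-GR and PC9. In the authors' deposited table no log2 ratio is smaller in size than 1.00 and no p-value exceeds 0.04965. The 4 collagens were selected on their FPKM values in this same contrast, so their differences are described below without p-values. Of the epithelial markers looked for, 0 of 6 are in the table, so the epithelial label could not be checked with these genes.

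Collagens are extracellular or membrane proteins whose chains wind around each other in a helix built on glycine at regular intervals. Collagen IV forms the network of basement membranes, collagen V is a minor partner that helps start and limit the fibrils of collagen I, and collagen VIII is a short network-forming collagen found in vessel walls and under the corneal endothelium. Collagen XVII, also known as BP180, crosses the plasma membrane of basal epithelial cells. It anchors them at hemidesmosomes, the junctions that tie keratin filaments to the basement membrane.

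The sequences just before the start sites of COL4A1, COL5A1 and COL17A1 are shown so that the promoter that COL4A1 shares with COL4A2 can be set beside those of a fibrillar collagen that was also high in PC9-GR and of a hemidesmosome collagen that was low. They are the 250 bases before the RefSeq start site on GRCh38.p14, 5′ to 3′ on the gene's strand: chr13:110307158-110307407 on the minus strand for COL4A1, chr9:134641553-134641802 on the plus strand for COL5A1 and chr10:104085881-104086130 on the minus strand for COL17A1. Capitals mark matches on either strand to GGGCGG (the GC box), to CCAAT (the CCAAT box) and to TATAA (the core of the TATA box). An E-box, CACCTG, was also searched, as was the AP-1 motif TGANTCA, and neither is in any of these windows.
COL4A1: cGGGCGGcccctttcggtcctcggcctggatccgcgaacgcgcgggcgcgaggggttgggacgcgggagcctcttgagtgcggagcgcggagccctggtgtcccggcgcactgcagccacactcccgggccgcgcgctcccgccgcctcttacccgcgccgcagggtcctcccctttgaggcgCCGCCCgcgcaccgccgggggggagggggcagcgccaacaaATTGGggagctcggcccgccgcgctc
COL5A1: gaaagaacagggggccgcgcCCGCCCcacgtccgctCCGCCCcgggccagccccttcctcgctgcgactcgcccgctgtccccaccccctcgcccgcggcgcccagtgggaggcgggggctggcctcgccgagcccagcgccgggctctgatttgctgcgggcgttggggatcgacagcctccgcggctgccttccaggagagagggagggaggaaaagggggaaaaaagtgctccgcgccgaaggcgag
COL17A1: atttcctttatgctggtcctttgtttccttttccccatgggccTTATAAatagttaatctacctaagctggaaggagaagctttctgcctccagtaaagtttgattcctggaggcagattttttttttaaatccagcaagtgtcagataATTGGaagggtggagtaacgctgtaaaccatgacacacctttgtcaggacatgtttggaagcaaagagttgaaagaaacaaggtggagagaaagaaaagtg

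The collagens that were high in PC9-GR have GC-rich windows, and COL17A1 does not. GC content was 77.6% before COL4A1, 74.0% before COL5A1 and 40.4% before COL17A1, against a median of 58.0% over 35116 RefSeq windows of the same length. GGGCGG matched at 2 places each in COL4A1 and COL5A1 and at 0 in COL17A1, and 42.6% of all windows hold it. CCAAT matched once each in COL4A1 and COL17A1 and is in 32.0% of windows. The TATAA match of COL17A1, a pair of overlapping matches on opposite strands that begins 207 bases before the start site, is of a kind found in 18.9% of windows. CACCTG is in 17.5% of windows and TGANTCA in 6.57%. These matches describe letters only, and 3 windows do not show a relation between base composition and direction. RefSeq lists 2 start sites for COL5A1, 2 bases apart, of which the first is shown.

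COL4A1, the alpha 1 chain of collagen IV, was near the bottom of the table's levels in PC9 and rose in PC9-GR. It measured 4.61, 3.16 and 4.08 FPKM in the PC9-GR libraries, against 0.140, 0.184 and 0.291 FPKM in the PC9 libraries. The lowest PC9-GR library was well above the highest PC9 library. The means were 3.95 ± 0.736 FPKM in PC9-GR and 0.205 ± 0.0774 FPKM in PC9 (SD, n = 3 each), a 19.3-fold difference. On the log2(FPKM + 1) scale the fitted difference of PC9-GR minus PC9 was 2.03 (SE 0.14). It was 3.74 with a pseudocount of 0.1, because the PC9 values are small against 1. The authors' deposited table gives a log2 ratio of 4.33. COL4A1 (ENSG00000187498) is a protein-coding gene that the table places on chromosome 13 from 110801317 to 111165374, in a build that is not given in the sources used here.

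COL5A1, the alpha 1 chain of the fibrillar collagen V, became the most abundant of the 4 in PC9-GR. Its levels were 12.5, 16.9 and 15.7 FPKM in PC9-GR, against 1.18, 1.98 and 1.48 FPKM in PC9. No PC9 library came near the PC9-GR range. The mean was 15.0 ± 2.26 FPKM in PC9-GR and 1.55 ± 0.402 FPKM in PC9 (SD, n = 3 each), a 9.69-fold difference. The fitted log2 difference was 2.65 (SE 0.16), and the authors' deposited table gives a log2 ratio of 3.33. COL5A1 (ENSG00000130635) is listed on chromosome 9 from 137533619 to 137736686.

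COL8A1, the alpha 1 chain of collagen VIII, was the most abundant of the 4 in PC9 and fell in PC9-GR. It measured 9.48, 10.1 and 7.14 FPKM in PC9-GR, against 41.6, 38.1 and 32.1 FPKM in PC9. Every PC9-GR library was below every PC9 library, yet COL8A1 stayed clearly detected in the resistant line. The mean was 8.91 ± 1.57 FPKM in PC9-GR and 37.3 ± 4.78 FPKM in PC9 (SD, n = 3 each), which makes PC9 4.18-fold higher. The fitted log2 difference was -1.95 (SE 0.15), and it was -1.20 when library totals over the listed genes were set equal. The authors' deposited table gives a log2 ratio of -2.05. COL8A1 (ENSG00000144810) is listed on chromosome 3 from 99357318 to 99518070.

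COL17A1, the hemidesmosomal transmembrane collagen, fell to about 1 FPKM in PC9-GR. Its levels were 0.955, 0.537 and 1.28 FPKM in PC9-GR, against 5.52, 4.21 and 3.59 FPKM in PC9. The groups did not overlap, but PC9-GR replicate 2 was well under the other PC9-GR libraries. The mean was 0.924 ± 0.373 FPKM in PC9-GR and 4.44 ± 0.982 FPKM in PC9 (SD, n = 3 each), which makes PC9 4.81-fold higher. The fitted log2 difference was -1.50 (SE 0.19), and it was -1.00 with equal library totals. The authors' deposited table gives a log2 ratio of -2.30. COL17A1 (ENSG00000065618) is listed on chromosome 10 from 105791043 to 105845760.

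**Figure D1:**
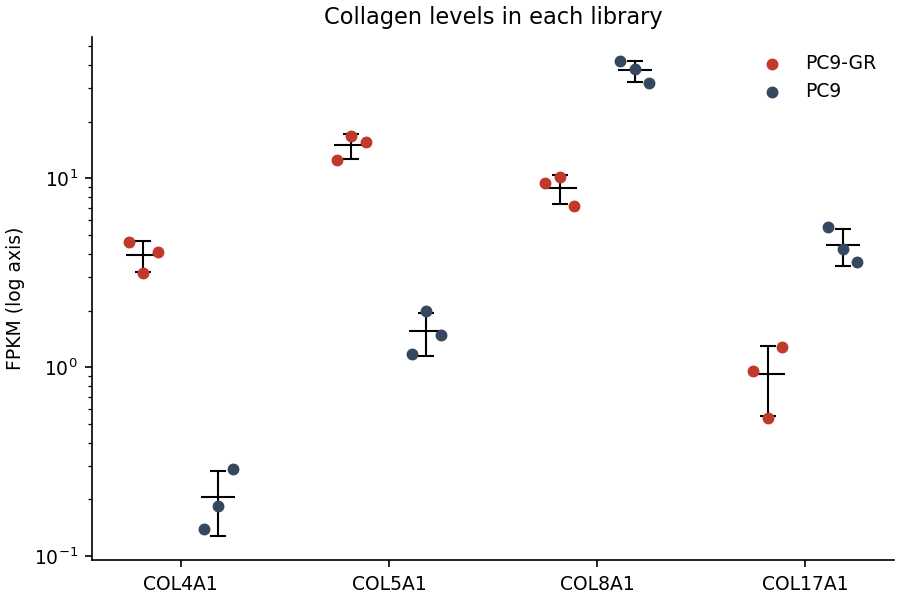
FPKM of the 4 collagens on a log axis, with 1 point per library and the mean ± SD of 3 libraries in black, PC9-GR in red and PC9 in dark blue. COL4A1 and COL5A1 are higher in each PC9-GR library than in any PC9 library, and COL8A1 and COL17A1 are lower in each.

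All 4 collagens reached 1 FPKM in at least 3 of the 6 libraries and were kept for the limma fit across the table. COL4A1 met that filter only through its 3 PC9-GR libraries, and COL17A1 reached 1 FPKM in the 3 PC9 libraries and in 1 PC9-GR library. In the fit COL4A1 and COL5A1 were called higher and COL8A1 and COL17A1 lower, at an adjusted p under 0.05 in limma. A call in either direction was made for 99.7% of the 1207 tested genes, and nothing is read from the 4 calls. The groups also failed to overlap for 94.8% of the 1705 listed genes. Of the tested genes, 48.4% were called higher and 51.3% lower.

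**Figure D2:**
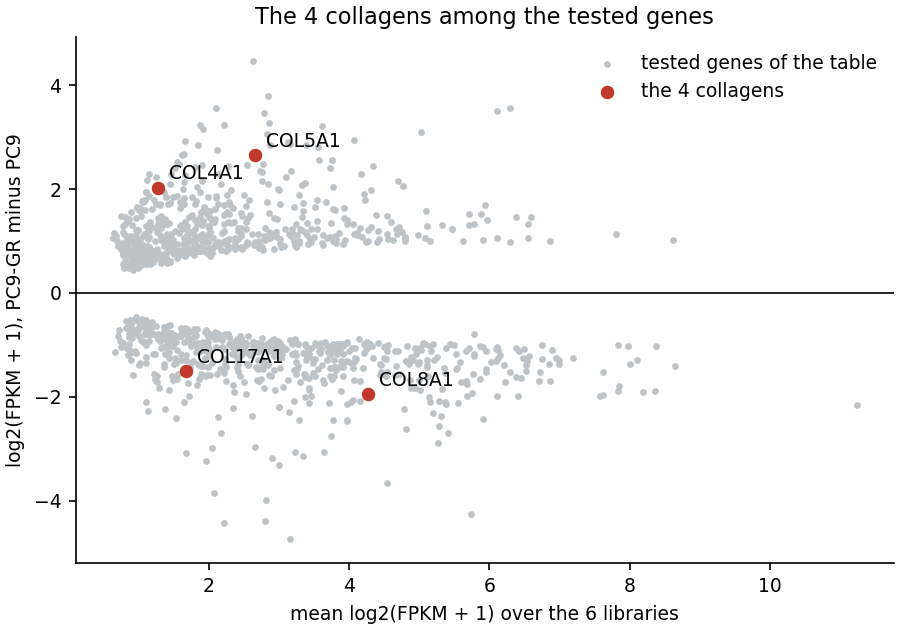
Fitted difference of PC9-GR minus PC9 on the log2(FPKM + 1) scale against the mean log2(FPKM + 1) over 6 libraries, for the 1207 tested genes in grey and the 4 collagens in red. The empty band around 0 shows that the table holds only selected genes. COL5A1 and COL4A1 lie above it at 2.65 and 2.03, COL17A1 and COL8A1 below it at -1.50 and -1.95.

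Spread between libraries was largest where a collagen was lowest. The coefficient of variation of COL17A1 was 40.3% in PC9-GR and 22.1% in PC9, and that of COL4A1 was 18.7% in PC9-GR and 37.7% in PC9. COL5A1 varied by 15.1% in PC9-GR and 26.0% in PC9, and COL8A1 by 17.6% in PC9-GR and 12.8% in PC9. Over all tested genes the median was 14.7% in PC9-GR and 13.95% in PC9.

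The order of the collagens by level differed between the lines. From high to low it was COL5A1, COL8A1, COL4A1 and COL17A1 in PC9-GR, and COL8A1, COL17A1, COL5A1 and COL4A1 in PC9. Neighbours in these orders did not overlap over the 3 libraries of a line. Against the mean levels of all listed genes in the same line, COL4A1 stood above 63.6% of genes in PC9-GR and above 10.9% in PC9. COL5A1 stood above 86.3% of genes in PC9-GR and above 49.7% in PC9. COL8A1 stood above 79.6% in PC9-GR and 91.8% in PC9, and COL17A1 above 32.1% in PC9-GR and 66.6% in PC9.

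Summed over the 4 genes alone, RNA per length was 27.5, 30.7 and 28.2 FPKM in PC9-GR, against 48.4, 44.5 and 37.5 FPKM in PC9. This sum was lower in every PC9-GR library as deposited, but its direction depends on the scaling. With equal library totals over the listed genes it averaged 39.5 ± 2.12 FPKM in PC9-GR and 34.3 ± 5.59 FPKM in PC9 (SD, n = 3 each), and the groups overlapped. With median-ratio scaling it averaged 25.2 ± 1.59 FPKM in PC9-GR and 47.0 ± 6.72 FPKM in PC9. The sum over all 14 listed collagen chains was higher in PC9-GR as deposited. It was 273.0, 290.4 and 263.2 FPKM there, against 143.7, 145.4 and 129.9 FPKM in PC9. COL8A1 made up 30.9 ± 4.87% of the sum of the 4 in PC9-GR and 85.7 ± 0.111% in PC9 (SD, n = 3 each). COL5A1 made up 52.0 ± 5.74% in PC9-GR and 3.62 ± 1.04% in PC9. The share of COL4A1 was 13.8 ± 3.28% in PC9-GR and 0.493 ± 0.252% in PC9, and that of COL17A1 was 3.26 ± 1.41% in PC9-GR and 10.1 ± 1.08% in PC9. Ratios within a library do not depend on scaling by a single factor per library, though quantile normalization can change them. COL5A1 stood to COL8A1 at 1.32, 1.67 and 2.19 in PC9-GR, against 0.0284, 0.0519 and 0.0462 in PC9. COL4A1 stood to COL17A1 at 4.83, 5.87 and 3.18 in PC9-GR, against 0.0254, 0.0437 and 0.0809 in PC9.

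**Figure D3:**
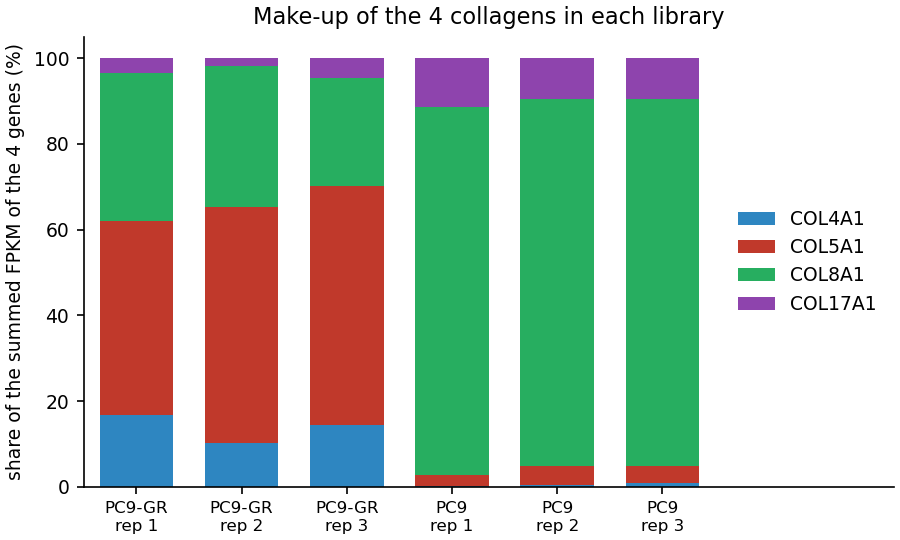
Share of each collagen in the summed FPKM of the 4 genes (%), with 1 bar per library, PC9-GR on the left and PC9 on the right. COL5A1 averages 52.0% in PC9-GR and 3.62% in PC9, and COL8A1 averages 30.9% in PC9-GR and 85.7% in PC9.

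COL4A1 has a natural partner in the table, COL4A2, whose chain joins the COL4A1 chain in the collagen IV of most basement membranes. In RefSeq the genes lie head to head on chromosome 13, with start sites 127 bases apart at 110307157 for COL4A1 and 110307284 for COL4A2 on GRCh38.p14. The 126 bases between the start sites belong to both promoter windows, so the ATTGG printed for COL4A1 is the CCAAT of COL4A2, with its first base at 110307179 in the genome. COL4A2 measured 1.17, 2.92 and 0.886 FPKM in PC9-GR, against 0.103, 0.109 and 0.0812 FPKM in PC9. Like COL4A1 it was higher in each PC9-GR library, with a mean of 1.66 ± 1.10 FPKM in PC9-GR and 0.0976 ± 0.0145 FPKM in PC9 (SD, n = 3 each). The difference was 17.0-fold. Without PC9-GR replicate 2, the library highest in COL4A2, the PC9-GR mean was 1.03 FPKM and the difference 10.5-fold.

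The chains did not vary together within PC9-GR. Replicate 2 had the lowest COL4A1 and the highest COL4A2 of the PC9-GR libraries, and COL4A1 stood to COL4A2 at 3.95, 1.08 and 4.60 in PC9-GR, against 1.36, 1.70 and 3.58 in PC9. Their sum was 5.78, 6.07 and 4.96 FPKM in PC9-GR, against 0.243, 0.293 and 0.372 FPKM in PC9. Its coefficient of variation in PC9-GR was 10.3%, against 18.7% for COL4A1 and 66.4% for COL4A2, and in PC9 it was 21.4%, against 37.7% for COL4A1 and 14.8% for COL4A2. The table gives both genes one and the same locus of 364058 bp, so how the authors' counting divided reads between them is uncertain. In GENCODE 29 the genes overlap by 1422 bp on opposite strands and share 0 exonic bases. Whether the division of reads had a part in the ratio was not tested.

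**Figure D4:**
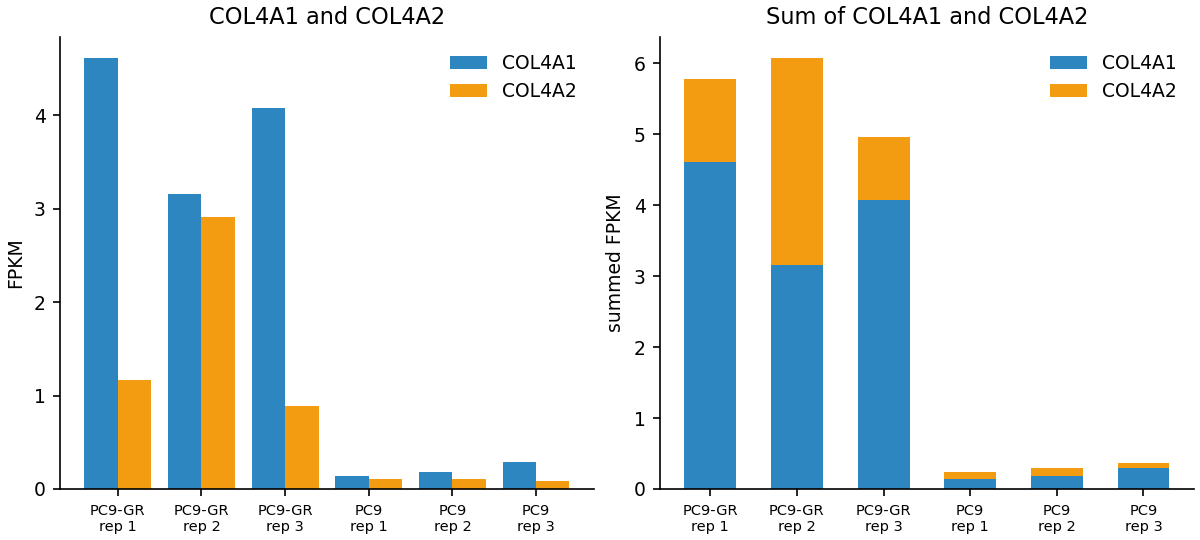
FPKM of COL4A1 and COL4A2 in each library, side by side in the left panel and stacked to their sum in the right panel, PC9-GR before PC9. PC9-GR replicate 2 has nearly equal levels, 3.16 FPKM of COL4A1 and 2.92 FPKM of COL4A2, while the sum stays between 4.96 and 6.07 FPKM in PC9-GR.

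Among all collagen chains, COL8A1 and COL17A1 were the listed chains that were lower in PC9-GR. Of 44 chain genes looked for, 14 are in the table, and the remaining chains were not analysed here. The 10 chains besides COL4A1, COL5A1, COL8A1 and COL17A1 each had higher levels in PC9-GR without overlap. The groups failed to overlap, in either direction, for 94.8% of all listed genes. The 7 of them that passed the filter were all called higher, except that COL9A2, a chain of the cartilage collagen IX, lost its call under quantile normalization with a log2 difference of 0.15. Over the 11 tested chains, 9 were called higher and 2 lower, against 48.4% and 51.3% of all tested genes. Their median log2 difference was 1.24, against -0.63 over all tested genes. These 11 include the 4 collagens chosen on this contrast, and both lower calls are of chosen genes. COL4A1, COL6A3, COL9A2 and COL27A1 met the filter only through their PC9-GR libraries, so a lower call was not possible for them.

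The fibril-associated collagens COL12A1 and COL16A1 showed smaller folds than COL5A1. COL12A1 averaged 7.90 ± 1.22 FPKM in PC9-GR and 2.76 ± 0.213 FPKM in PC9, and COL16A1 averaged 12.1 ± 1.39 FPKM in PC9-GR and 4.54 ± 0.608 FPKM in PC9 (SD, n = 3 each). COL27A1, another fibrillar collagen, averaged 3.16 ± 0.418 FPKM in PC9-GR and 0.490 ± 0.0376 FPKM in PC9, a 6.45-fold difference. The collagen VI chains, which form beaded filaments, spanned a wide range of folds, from 1.99-fold for COL6A1 and 2.53-fold for COL6A2 to 88.9-fold for COL6A3. The fold of COL6A3 rests on a low PC9 level, 0.317 ± 0.0844 FPKM, against 28.2 ± 0.942 FPKM in PC9-GR. COL9A2 averaged 1.34 ± 0.301 FPKM in PC9-GR and 0.620 ± 0.136 FPKM in PC9. COL9A3 and COL22A1 were below the filter, like COL4A2, and averaged 1.03 ± 0.130 and 0.654 ± 0.0554 FPKM in PC9-GR, against 0.261 ± 0.215 and 0.0994 ± 0.0882 FPKM in PC9. Without the filter, under which 97.1% of the 1705 genes were called, these 3 were called higher.

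**Figure D5:**
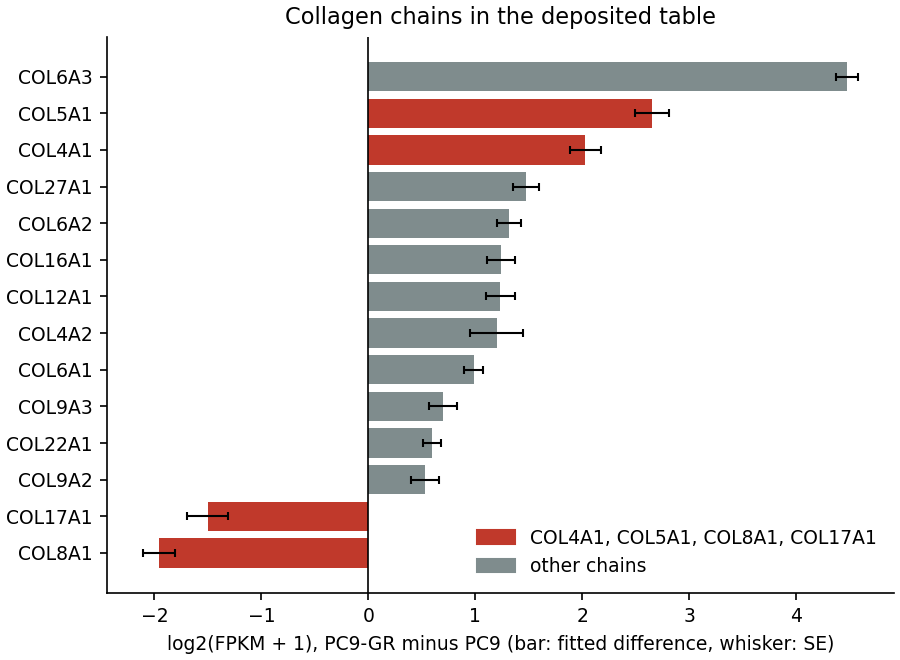
Fitted difference of PC9-GR minus PC9 on the log2(FPKM + 1) scale for the 14 collagen chains of the table, from the fit without a filter on low values, with the SE as whiskers. The 4 collagens described here are red, the other chains grey. COL17A1 and COL8A1 are the bars below 0.

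Basement membrane genes besides COL4A1 moved in both directions. Of 31 genes looked for, 6 are in the table, with 7 entries. LAMC3, a laminin gamma chain, averaged 6.88 ± 0.767 FPKM in PC9-GR and 0.767 ± 0.0825 FPKM in PC9, an 8.97-fold difference. The laminin alpha chain LAMA2 was 4.66-fold higher, at 3.21 ± 0.482 FPKM in PC9-GR and 0.689 ± 0.276 FPKM in PC9. LAMA4, another alpha chain, was called lower at its chromosome 6 entry and at its copy on a patch scaffold, and both calls were lost with equal library totals. The chromosome 6 entry averaged 1.71 ± 0.361 FPKM in PC9-GR and 3.47 ± 0.428 FPKM in PC9, and reads of the copies may be split between them. SMOC1, a calcium-binding basement membrane protein, was listed at 0.001 FPKM, the lowest value of the table, in the 3 PC9-GR libraries and at 2.01, 0.473 and 1.62 FPKM in PC9. In all, with COL4A1, 3 tested entries were called higher and the 2 LAMA4 entries lower, against 48.4% and 51.3% of all tested genes. COL4A1 and LAMC3 met the filter only through their PC9-GR libraries, so a lower call was not possible for them. Without the filter, under which 97.1% of all listed genes were called, SMOC1 was called lower and COL4A2 higher.

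Hemidesmosome genes in the table were lower together with COL17A1. Of 12 genes looked for, 3 are listed, the chosen COL17A1 among them. Of these, 3 were called lower and 0 higher, against 51.3% and 48.4% of all tested genes, with calls kept under each scaling. ITGB4, the integrin beta 4 subunit whose dimer with alpha 6 binds laminin at hemidesmosomes, measured 43.6, 56.2 and 46.9 FPKM in PC9-GR, against 176.5, 157.4 and 130.5 FPKM in PC9. KRT5, a basal keratin of stratified epithelia, measured 16.6, 12.7 and 20.7 FPKM in PC9-GR, against 68.5, 94.7 and 109.2 FPKM in PC9. The PC9-GR libraries lay below the PC9 libraries for each gene, and groups failed to overlap, in either direction, for 94.8% of all listed genes. PC9 was 3.16-fold higher for ITGB4 and 5.46-fold higher for KRT5. The fitted log2 differences were -1.64 (SE 0.14) for ITGB4 and -2.38 (SE 0.20) for KRT5, beside -1.50 for COL17A1. With equal library totals they were -0.85 for ITGB4, -1.60 for KRT5 and -1.00 for COL17A1, and ITGB4 was at -0.74 under quantile normalization. The list was written with squamous results of these data known, so its direction is no independent evidence.

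Few genes that make, bind or cut collagen are listed. Of 39 synthesis and processing genes 3 are in the table, and the 2 tested were called higher, as were 48.4% of all tested genes. LEPRE1, a prolyl 3-hydroxylase of collagen chains, averaged 23.9 ± 1.63 FPKM in PC9-GR and 8.91 ± 1.22 FPKM in PC9. LOXL2, a lysyl oxidase family member that crosslinks collagen IV, averaged 39.2 ± 9.29 FPKM in PC9-GR and 9.13 ± 1.95 FPKM in PC9, a 4.29-fold difference. TLL1, a procollagen-processing protease, missed the filter, with 0.213 ± 0.0453 FPKM in PC9-GR and 0.708 ± 0.231 FPKM in PC9. Without the filter, under which 97.1% of all listed genes were called, TLL1 was called lower.

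Of 12 collagen receptors 2 are listed, one in each direction. MRC2, an endocytic receptor that clears collagen fragments, averaged 13.4 ± 2.96 FPKM in PC9-GR and 2.20 ± 0.214 FPKM in PC9, 6.11-fold higher. ITGA2, the alpha subunit of a collagen-binding integrin, averaged 46.9 ± 3.84 FPKM in PC9-GR and 97.9 ± 5.72 FPKM in PC9, a log2 difference of -1.05 that was -0.26 with equal library totals and whose lower call was lost under quantile normalization.

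Of 21 proteases and inhibitors 5 are listed, and 4 were called higher and 1 lower, against 48.4% and 51.3% of all tested genes. The gelatinase MMP9, which cuts denatured collagen and collagen IV, showed the largest fold of these at 53.0. That fold rests on a low PC9 level, 0.261 ± 0.135 FPKM, against 13.8 ± 0.873 FPKM in PC9-GR. The membrane-bound collagenase MMP14 averaged 14.9 ± 3.99 FPKM in PC9-GR and 6.22 ± 0.781 FPKM in PC9. MMP7 averaged 4.48 ± 2.50 FPKM in PC9-GR and 0.383 ± 0.0572 FPKM in PC9, with PC9-GR replicate 1 far under the other PC9-GR libraries at 1.60 FPKM. The membrane-bound protease MMP16 was 5.59-fold higher, at 2.53 ± 0.460 FPKM in PC9-GR and 0.452 ± 0.0293 FPKM in PC9. MMP9, MMP7 and MMP16 met the filter only through their PC9-GR libraries, so a lower call was not possible for them. TIMP3, a matrix-bound inhibitor of such proteases, was lower, at 71.1 ± 5.18 FPKM in PC9-GR and 184.8 ± 16.1 FPKM in PC9, and its log2 difference of -1.37 was -0.57 with equal library totals and also under quantile normalization. Of 22 fibril and matricellular partners 4 are listed, and all 4 were called higher under each scaling, as were 48.4% of all tested genes in the fit as deposited. The collagen-binding glycoprotein SPARC was 11.7-fold, EFEMP2, an elastic fibre protein, 3.79-fold and MATN2, a matrilin that links matrix fibres, 2.99-fold higher in PC9-GR. TGFBI, a collagen-binding adhesion protein, averaged 331.95 ± 31.4 FPKM in PC9-GR and 149.8 ± 14.7 FPKM in PC9.

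Markers of other cell types were looked up because fibroblasts and vessels are major sources of collagens. Of 9 fibroblast markers 1 is listed, PDGFRB, at 3.77, 3.69 and 2.38 FPKM in PC9-GR, against 0.143, 0.0749 and 0.0661 FPKM in PC9. Of 6 endothelial markers 0 are listed. Of 6 haematopoietic markers 2 are listed: CD68 averaged 38.4 ± 3.61 FPKM in PC9-GR and 18.6 ± 1.05 FPKM in PC9, and LYZ averaged 0.142 ± 0.125 FPKM in PC9-GR and 1.09 ± 0.459 FPKM in PC9. By their labels all 6 libraries are of the PC9 line or its derivative, with no other cell type named. The part of other cells in the collagen levels was not tested. In bulk RNA, fewer cells of a type and less RNA per cell cannot be told apart.

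The genes whose profiles over the 6 libraries were most like each collagen were taken by Pearson's correlation of log2(FPKM + 1), as a description. For COL4A1 they were RP11-335I12.2, ZNF804A and TENM1, each at a correlation of 1.00 after rounding. For COL5A1 they were SCD, RIMS2 and IP6K3, for COL8A1 AK3 and MAGI1, and for COL17A1 C11orf85, ZC2HC1C and NRG4. The correlation of the closest gene was 0.998 for COL5A1, 0.999 for COL8A1 and 0.991 for COL17A1. Correlations this high are common here, in a table where the groups do not overlap for 94.8% of the listed genes. Of 1206 other tested genes, 331 correlated above 0.95 with COL4A1, 388 with COL5A1, 391 with COL8A1 and 185 with COL17A1.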

How the data were processed

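Per the labels' protocols, Trizol total RNA went into a strand-specific SureSelect library kit of Agilent. The submitters' processing notes name TopHat and Cufflinks. Not given in the sources used here were versions, genome build, annotation, strand setting and the test behind the authors' p-values. The authors deposited FPKM for each library. Per the file headers, the table also holds the authors' ratio of T1 (PC9-GR) over control (PC9), a log2 ratio, and p-values with q-values.

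FPKM values were taken unchanged and set on the log2(FPKM + 1) scale. A gene was tested if 3 or more of the 6 libraries reached 1 FPKM, which left out 498 genes. The two-sided limma test (limma 3.58.1, R 4.3.3) was fitted across all tested genes with a trended variance and the group term alone, and calls were made at a Benjamini-Hochberg adjusted p under 0.05. The fit was checked on simulated data. Folds are ratios of mean FPKM. Summed over the listed genes, libraries held 16705 to 17114 FPKM in PC9-GR and 28346 to 30541 FPKM in PC9.

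The 4 collagens, the 7 matrix lists and the naming rule were chosen with earlier results of these data known. Named are the 4 collagens, each listed collagen, basement membrane and hemidesmosome gene, at most 3 called genes per direction of the other lists (TLL1, MMP14, TGFBI and the cell type markers are named outside the rule, after their values were seen, to spell out small counts), the 3 most alike genes per collagen (1 of them is not reported here) and the nearest listed neighbours. Promoter sequences are from RefSeq on GRCh38.p14 and matched 3 of the 4 collagens, all but COL8A1. Coordinates of the table and of GRCh38 were not mixed. Tables and figures used Python 3.11.15. The 14 alternatives changed the pseudocount, filter, scaling, variance trend or replicate term, or left out a library.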

Additional observations from a re-analysis of the deposited data

How the results depend on the processing

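COL4A1, COL5A1, COL8A1 and COL17A1 kept their direction and their side of the limma threshold in each alternative that could be run, 13 for COL4A1 and COL17A1 and 14 for COL5A1 and COL8A1. The 4 were chosen on this contrast, and 99.7% of tested genes were called as deposited. Nothing is read from the kept calls. With a filter at 5 FPKM, COL4A1 and COL17A1 have no value. Their log2 differences ranged from 1.86 to 3.74 for COL4A1, 2.40 to 3.28 for COL5A1, -2.24 to -1.20 for COL8A1 and -2.20 to -1.00 for COL17A1. Leaving out each library in turn gave 1.93 to 2.15, 2.55 to 2.77, -2.06 to -1.82 and -1.63 to -1.35 in the same order, and 578 to 581 higher and 614 to 618 lower calls. With a filter at 5 FPKM, 234 genes were called higher and 393 lower, against 584 and 619, since only 629 genes were tested, and 37.3% of calls were higher, against 48.5%. Equal library totals shifted the median gene by 0.61 on the log2 scale and median-ratio scaling by -0.23, and with equal totals 57.5% of calls were higher, with 586 higher and 433 lower calls. The summed FPKM of the 4 collagens, rescaled after the data were seen, stood in PC9-GR at 0.662 of PC9 as deposited, 1.15 with equal totals and 0.535 with median-ratio scaling. The replicate numbers of the labels were not taken as pairs: same-numbered libraries had deviations correlated at -0.098, 0.082 and 0.164, and not each library correlated best with its own number. With the replicate block 586 genes were called higher and 619 lower, and the 4 collagens kept their calls. Depth is unknown, so the precision of COL4A1 in PC9 and COL17A1 in PC9-GR, both near or under 1 FPKM, rests on 3 libraries alone.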

Other observations

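By the authors' deposited log2 ratio, 871 genes of the whole table are higher in PC9-GR and 834 lower. COL17A1 is 1 of 10 listed genes of chromosome 10 that are lower in PC9-GR by the authors' deposited table, against 41 that are higher. Its nearest listed neighbours by the table's loci were NEURL, higher at 8.75 ± 0.999 FPKM in PC9-GR and 1.01 ± 0.356 FPKM in PC9, and GSTO2, at 0.673 ± 0.372 FPKM in PC9-GR and 1.46 ± 0.551 FPKM in PC9 (SD, n = 3 each), called lower. On chromosome 3, where 57 of 88 listed genes are lower by the authors' deposited table, COL8A1 lies between the non-coding RNA LINC00973, called lower, and ABI3BP, called higher. COL5A1 lies between SARDH, called higher, and LCN10, called lower. Neighbours here are the next listed genes, at gaps of 929 and 1896 kb for COL5A1 and 620 and 950 kb for COL8A1. For COL17A1 the gaps were 176 and 183 kb. On chromosome 13, with 14 higher and 19 lower listed genes, the neighbours of COL4A1 were all higher in PC9-GR by the authors' deposited table. MYO16, which ends 941 kb before the locus of COL4A1 and COL4A2, missed the filter, with 1.21 ± 0.286 FPKM in PC9-GR and 0.136 ± 0.0666 FPKM in PC9. RAB20, which begins 10.0 kb after their locus, was called higher at 4.24 ± 0.564 FPKM in PC9-GR and 1.95 ± 0.177 FPKM in PC9.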
